A study of Mus musculus with 6 samples.

Results

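The nuclear genes of mitochondrial complex I were followed in primary mouse chondrocytes, the cells of cartilage, after a small interfering RNA against Pkm2 (siPkm2). The genes were all those of the deposited expression table whose name starts with Nduf, with 3 pseudogenes (names containing -ps) left out. These were 51 of 55416 genes. The group held 37 subunits of the 4 structural parts of the enzyme, 8 assembly factors of the Ndufaf series, Ndufa4 and Ndufa4l2, and 4 further Nduf-named copies. The rule used names only and no expression value.

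Complex I is the NADH dehydrogenase of the inner mitochondrial membrane and the entry point for most electrons of the respiratory chain. Its N module oxidises NADH, its Q module passes the electrons to ubiquinone, and its proximal and distal membrane arms pump protons. Assembly factors bring these parts together and are not found in the finished enzyme. Cartilage has few blood vessels, and chondrocytes draw much of their ATP from glycolysis, the pathway that ends in pyruvate kinase.

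The study asked how the M2 isoform of pyruvate kinase (PKM2) acts in chondrocytes, and its sequenced comparison was siPkm2 against a scrambled siRNA (siNC), with 3 libraries in each group. The labels give wild-type neonatal mouse knee joints as the source, whereas the study's methods describe chondrocytes from older mice. The transfection was transient and lowered rather than removed the target. All 3 treated libraries carry siPKM2 in their titles, but their genotype entries read PKM2 knockdown, PKM3 knockdown and PKM4 knockdown for replicates 1, 2 and 3. The labels do not say whether the replicates were separate animals, so p-values measure the spread between these libraries.

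Levels are given as CPM, counts relative to the library total after scaling by TMM factors, for the same gene across libraries, and as TPM, in which counts are also divided by transcript length, where genes are compared. Total estimated counts lay between 22316996 and 25691029 per library. Pkm, which includes the PKM1 and PKM2 transcripts, stood at 2335, 2746 and 1674 CPM in replicates 1, 2 and 3 of siNC, against 336, 541 and 309 CPM in those of siPkm2. Its log2 fold change was -2.51 (adjusted p = 0.0738, quasi-likelihood test of edgeR), and -2.53 (adjusted p = 0.00932) when the replicate number entered the same test as a block. The replicate 2 libraries stood apart in both groups. The summed level of 8 chondrocyte markers was 10938 and 15270 CPM in the 2 replicate 2 libraries and between 42501 and 51870 CPM in the other 4. The summed level of 12 interferon-stimulated genes was 78.2, 1935 and 99.9 CPM in siNC and 1201, 3604 and 961 CPM in siPkm2, so it moved both with replicate 2 and with the treatment. Summed macrophage markers were between 8.36 and 75.9 CPM, highest in siNC replicate 2. Osteoblast markers summed to between 63.6 and 431 CPM in siNC and between 54.2 and 179 CPM in siPkm2. Endothelial and skeletal muscle markers each summed to under 10 CPM in every library, and fibroblast markers to between 4643 and 11783 CPM. The part of these differences in the complex I values was not tested.

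Sequences were examined for features that the genes share. The core of the binding site of nuclear respiratory factor 1 (NRF1), a transcription factor of many nuclear genes for respiration, was searched as GCGCANGCGC on both strands. The window ran from 250 bases before to 50 bases after the RefSeq start site. It was present in 9 of the 41 complex I genes with a promoter entry (22%), in 4.78% of 27025 mouse promoters and in 10% of the promoters of genes tested here. All 11 matches are printed below as 30-base stretches on the gene's strand, with the match in capitals, to show how they recur.
Ndufa5, a Q module subunit: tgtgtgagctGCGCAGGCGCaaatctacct
Ndufa6, a Q module subunit: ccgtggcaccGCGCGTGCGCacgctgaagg
Ndufa8, proximal arm: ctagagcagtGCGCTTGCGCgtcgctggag
Ndufa11, proximal arm: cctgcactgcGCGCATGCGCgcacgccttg
Ndufs5, proximal arm: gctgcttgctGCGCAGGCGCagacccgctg
Ndufs6, N module: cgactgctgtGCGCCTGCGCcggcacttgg
Ndufb4, distal arm, first match: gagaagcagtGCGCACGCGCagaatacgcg
Ndufb4, second match: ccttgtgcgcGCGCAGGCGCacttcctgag
Ndufb4, last match: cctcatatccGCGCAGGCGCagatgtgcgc
Ndufaf4, assembly factor: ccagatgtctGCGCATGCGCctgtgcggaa
Ndufaf5, assembly factor: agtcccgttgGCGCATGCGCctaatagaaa
The printed stretch of Ndufa6 lay at chr15:82354249-82354278 and that of Ndufa8 at chr2:36049349-36049378 (GRCm38.p6, minus strand). A second motif, the core AAGATGG of the YY1 site, stood in 8 of the 41 promoters (19.5%) against 6.48% of all promoters and 7.03% of those tested. An ETS core (CCGGAAG, 14.6% against 17.4% of those tested) and a GC box (GGGCGG, 51.2% against 64%) were less frequent than among those tested, as was the hypoxia response core ACGTG (19.5% against 25.5%). Ndufa4l2 had no promoter entry and is in none of these shares. The shares are descriptions of the windows and were not tested. The genes with an NRF1 match held both signs in the comparison below, with log2 fold changes of -0.64 for Ndufa6 and 0.27 for Ndufa8.

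The knockdown reagent itself can pair with other transcripts through its seed, bases 2 to 8 of the guide strand. The labels do not tie a guide to the libraries, and the supplement names siPkm2 #3 as the one selected. That guide is given here with its seed in capitals, followed by the complex I genes whose longest annotated 3′ untranslated region holds the complementary site, with the site in capitals.
siPkm2 #3 guide: uGUUUCUCcagacagcaugtt
Ndufa10: atctggagGAGAAACaaagcaga
Ndufab1: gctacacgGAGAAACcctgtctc
Ndufaf7: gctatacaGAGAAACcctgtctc
Ndufv1: agctgattGAGAAACatgctggt
These were 4 of 45 complex I genes with such a region (8.89%), against 17.9% of 13283 tested genes. Of these 4, Ndufa10 fell in the test with the replicate block described below, and Ndufab1, Ndufaf7 and Ndufv1 did not pass it. The site AAGAATG of the guide siPkm2 #2 also stood in 4 of the 45 (8.89%, against 17.4% of tested genes). These were Ndufa10 and Ndufa6, lower in siPkm2, and Ndufaf4 and Ndufv1, which did not pass, at log2 fold changes of 0.29 and -0.08 without the block. Whether a seed match bears on any level was not tested.

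Most subunit genes were expressed at a similar order of magnitude, and the assembly factors far lower. On the TPM scale, the mean over the 6 libraries was highest for Ndufa4 (424 TPM, between 335 and 539 in single libraries), Ndufa4l2 (356 TPM, between 150 and 611) and Ndufa7 (356 TPM, between 281 and 453). These 3 overlapped in their ranges and cannot be ordered. The 8 assembly factors lay between 6.997 TPM for Ndufaf4 and 33.5 TPM for Ndufaf2. Among the subunits of the 4 structural parts only Ndufb4, at 26.1 TPM, lay within that range, while its copy Ndufb4c stood at 238 TPM. Both had fractional estimated counts, and how reads shared between the copies were split is uncertain. Fractional counts occurred in 19 of 48 complex I genes (39.6%) and in 49.9% of all genes tested. The copies Ndufa11b and Ndufb11b had 1 and 2 counts, all in siPkm2 replicate 2, and Ndufs6b had none in any library.

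**Figure D1:**
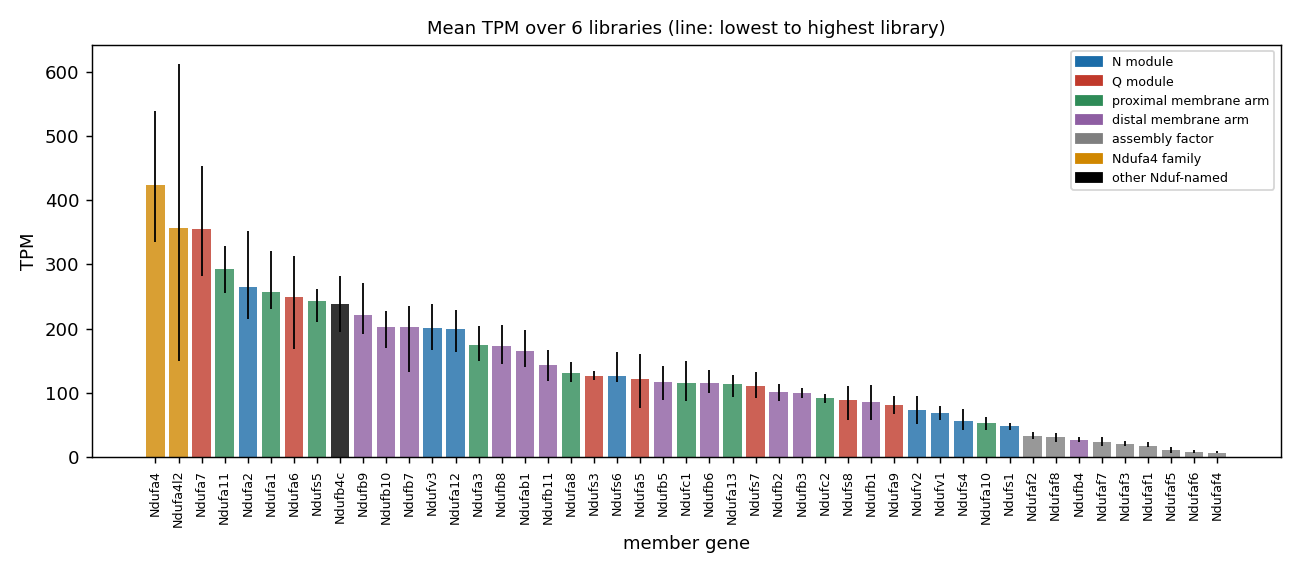
Mean TPM over the 6 libraries for 47 complex I genes with enough counts to be tested, as bars coloured by part of the enzyme, with a line from the lowest to the highest library. Ndufa4 stands highest at 424 TPM, and the assembly factors form the low end, down to 6.997 TPM for Ndufaf4.

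As a group the genes were centred close to no change. Of the 51 genes, 48 passed the filter on low counts. Their median log2 fold change was -0.0057, against -0.021 over all 15269 genes tested, and 23 of the 48 had a positive value, against 48.1% of all genes. Their summed level was 2083 ± 304 CPM in siNC and 2101 ± 90.1 CPM in siPkm2 (SD, n = 3). In TPM the sums were 6676 ± 490.4 and 6525 ± 155 (SD, n = 3). On both scales the groups overlapped. In bulk RNA, fewer mitochondria-rich cells and less of these transcripts per cell cannot be told apart.

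Many of the genes were high or low in the same replicates. In siNC, replicate 1 was the highest library for 42 of the 48 genes (87.5%, against 33% of all genes), and replicate 2 was the lowest for 31 (64.6%, against 40.5%). In siPkm2, replicate 1 was the highest for 36 (75%, against 34.3% of all genes) and replicate 2 the lowest for 27 (56.2%, against 39.6%). The median ratio of the highest to the lowest siNC library was 1.43 for these genes and 1.55 for all genes, and the median fold between the groups, in either direction, was 1.12 and 1.24. The median log2 ratio within replicate pairs was -0.14 in pair 1, 0.14 in pair 2 and 0.017 in pair 3, with 17, 31 and 27 genes above 0. Over all genes the same medians were -0.015, 0.0051 and -0.0040. Leaving out siNC replicate 1 therefore moved the group's median to 0.15 with 36 positive genes, and leaving out siNC replicate 2 moved it to -0.12 with 17.

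**Figure D2:**
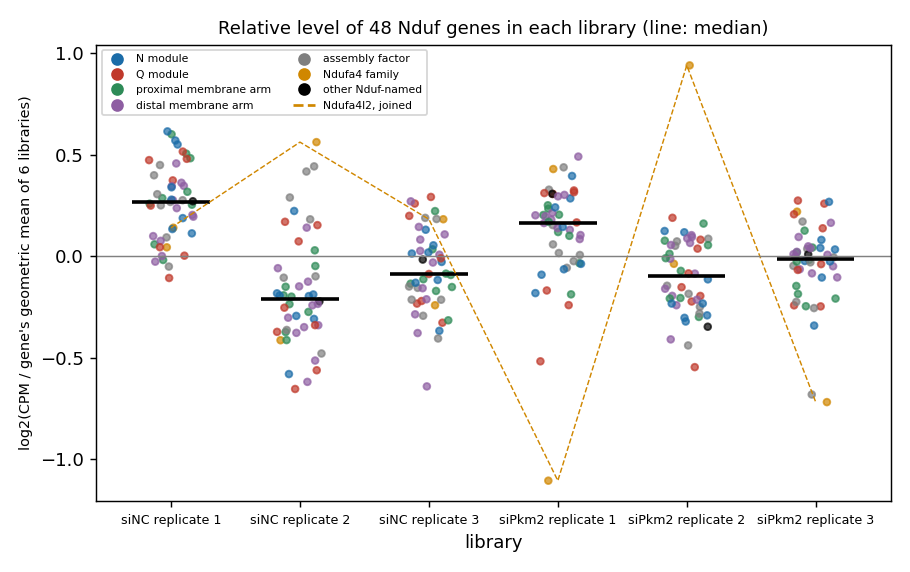
Level of each of the 48 complex I genes in each library, as the log2 of CPM over the gene's geometric mean of the 6 libraries, with the library's median as a black line and Ndufa4l2 joined by dashes. The medians run from 0.27 in siNC replicate 1 to -0.21 in siNC replicate 2, and Ndufa4l2 lies above 0 in both replicate 2 libraries, as did 11 of the 48 genes in siNC and 18 in siPkm2.

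Without the replicate block no complex I gene passed. None was called at a fold over 2 and adjusted p under 0.05 (0% of all genes were), and none had an adjusted p under 0.05 at any fold (0% of all genes), by the quasi-likelihood test of edgeR after Benjamini-Hochberg adjustment. At an unadjusted p under 0.05, 6 of 48 stood out, against 17.6% of all genes. DESeq2 without the block gave none of them at any fold, against 5.38% of all genes, and limma on log2(TPM + 1) gave none, against 0.00655% of all genes.

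The replicate numbers paired the libraries, and with the number as a block 7 of the 48 genes passed an adjusted p of 0.05 at any fold, against 23.1% of all genes. Of the 7, 3 were higher in siPkm2 (12.3% of all genes) and 4 lower (10.8%). None of the 48 was called at a fold over 2, against 5.83% of all genes. Those that rose included Ndufa9 and Ndufa4, and the 4 that fell were Ndufa6, Ndufa7, Ndufs4 and Ndufa10. DESeq2 with the block gave the same 7 genes, against 26.9% of all genes. The 4 libraries of replicates 1 and 3 gave 10 genes with the block (39.1% of all genes there), namely the same 7 with Ndufa2, Ndufa4l2 and Ndufb1. With the 4 libraries of replicates 2 and 3, or of replicates 1 and 2, the block gave none among the complex I genes and none among all genes by edgeR, and 10 and 7 of the 48 had an unadjusted p under 0.05, against 25% and 23.1% of all genes in those fits. In these settings, which both hold replicate 2, the log2 fold changes kept their sign. The genes were picked with the block and had the same sign in each pair. Their sign here was therefore nearly fixed in advance and is not separate support. The log2 fold changes were 0.45 and 0.36 for Ndufa9, 0.42 and 0.38 for Ndufa4, and -0.40 and -0.45 for Ndufa7. Ndufs4 was at -0.46 and -0.63, and Ndufa10 at -0.28 and -0.38. The size for Ndufa6 depended more on the pair left out, at -0.44 and -0.69.

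Between groups, 4 genes had every siPkm2 library above every siNC library (12% of all genes) and 4 had every one below (12.3%). Those higher included Ndufa9, Ndufa8 and Ndufb4, and lower were Ndufa6, Ndufa7, Ndufs4 and Ndufa10. In all 3 pairs 12 genes were higher in siPkm2 (30.5% of all genes) and 10 lower (30.6%). As shares of the 48, all 4 counts lay below those of all genes.

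**Figure D3:**
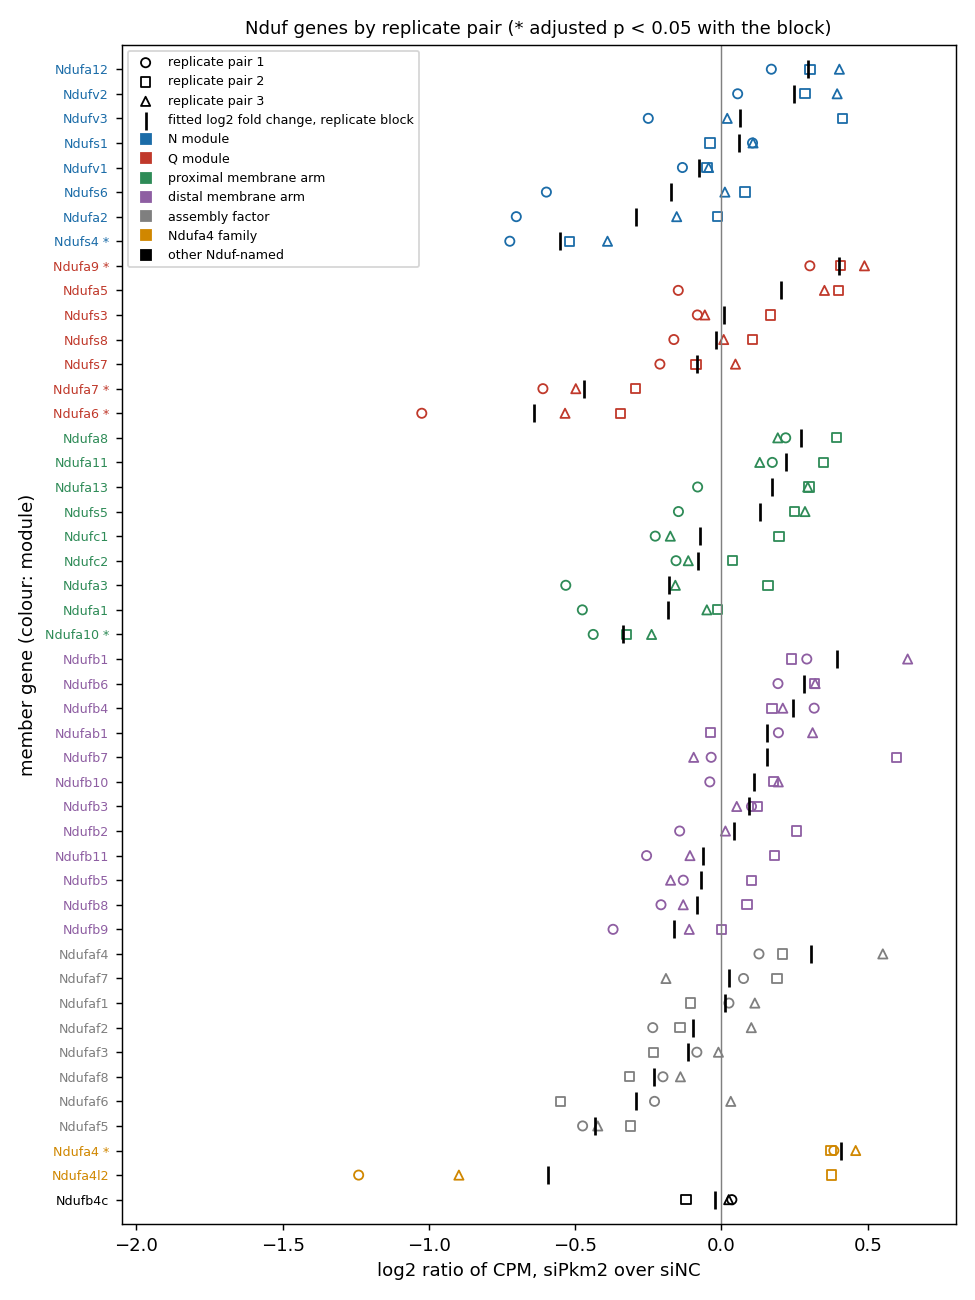
Log2 ratio of CPM, siPkm2 over siNC with 0.5 CPM added to each, in replicate pairs 1 (circles), 2 (squares) and 3 (triangles) for 47 complex I genes, coloured by part of the enzyme, with the log2 fold change fitted with the replicate block as a bar. Stars mark genes with an adjusted p under 0.05 with the block. Pair 1 lies mostly left of 0 and pair 2 mostly right of it.

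In the Q module, genes that passed with the block moved in opposite directions. Ndufa9, an accessory subunit near the junction of the Q module with the membrane arm, had 62.7, 48.3 and 53.2 CPM in the siNC libraries (replicates 1, 2 and 3 in order, as throughout) and 77.4, 64.2 and 74.9 CPM in siPkm2. The groups did not overlap, and the log2 fold change was 0.40 with the block (SE 0.08, adjusted p = 0.0264, edgeR) and 0.40 without it (adjusted p = 0.240, edgeR). Ndufa6, a small accessory subunit that binds the acyl carrier protein, went the other way, at 75.3, 58.6 and 64.5 CPM in siNC and 36.8, 46.0 and 44.4 CPM in siPkm2. Its fall of 35.9% was the largest fall among the 7, with a log2 fold change of -0.64 with the block (SE 0.15, adjusted p = 0.0341, edgeR) and -0.64 without it (adjusted p = 0.140, edgeR). The log2 ratio ranged from -1.02 in pair 1 to -0.35 in pair 2.

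Ndufa7, another small accessory subunit, was at 77.7, 63.1 and 71.8 CPM in siNC and at 50.7, 51.4 and 50.7 CPM in siPkm2. The treated libraries were nearly equal and all below the controls, and the log2 fold change was -0.47 with the block (SE 0.09, adjusted p = 0.0258, edgeR) and -0.48 without it (adjusted p = 0.150, edgeR). Ndufs3, Ndufs7, Ndufs8 and Ndufa5 did not pass, at log2 fold changes between -0.08 and 0.20 with the block. Summed over the 8 genes, the Q module was at 450.1 ± 62.8 CPM in siNC and 466.0 ± 24.6 CPM in siPkm2 (SD, n = 3), with overlapping groups. Summed in TPM, where short transcripts weigh more, it was at 1344 ± 97.5 and 1188 ± 27.4 (SD, n = 3), and the siPkm2 libraries all lay below the siNC libraries. The direction of the module's sum thus depended on the unit, with Ndufa6 and Ndufa7 making up 302 and 412 TPM of the siNC sum.

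In the N module 1 of 8 genes passed with the block. Ndufs4, an accessory subunit whose loss in humans and mice gives a complex I deficiency, was at 49.8, 39.7 and 35.3 CPM in siNC and 29.97, 27.5 and 26.8 CPM in siPkm2. No siPkm2 library reached the lowest siNC library. The log2 fold change was -0.55 with the block (SE 0.10, adjusted p = 0.0222, edgeR) and -0.57 without it (adjusted p = 0.180, edgeR). Ndufa12, another accessory subunit, was at 45.0, 36.5 and 32.2 CPM in siNC and 50.7, 45.1 and 42.8 CPM in siPkm2, with overlapping groups and an adjusted p of 0.0657 with the block (edgeR). None of the 3 catalytic subunits of the module passed with or without the block. Ndufv1, which binds NADH and FMN, was at 65.2, 47.3 and 54.4 CPM in siNC and 59.4, 45.7 and 52.8 CPM in siPkm2. Ndufv2, an iron-sulfur subunit, was at 71.0, 37.5 and 51.2 CPM and then 73.8, 45.8 and 67.5 CPM, higher in each pair (log2 fold change 0.25, adjusted p = 0.118 with the block, edgeR). Ndufs1, the largest iron-sulfur subunit, was at 78.4, 62.5 and 70.1 CPM and then 84.5, 60.8 and 75.6 CPM.

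Among further catalytic subunits, Ndufs3, Ndufs7 and Ndufs8 did not pass with or without the block. The latter pair carry iron-sulfur clusters. Ndufs3 was at 72.9, 51.4 and 60.9 CPM in siNC and 68.8, 57.8 and 58.5 CPM in siPkm2. Ndufs7 was at 37.2, 40.6 and 34.0 CPM and then 32.1, 38.2 and 35.1 CPM. Ndufs8 was at 43.5, 19.8 and 35.8 CPM and then 38.8, 21.4 and 36.0 CPM. In Ndufs8 the replicate 2 libraries were the low ones in both groups, by more than the groups differed.

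In the proximal membrane arm 1 of 9 genes passed with the block. Ndufa10, an accessory subunit of the membrane arm, was at 69.6, 59.5 and 68.1 CPM in siNC and 51.2, 47.4 and 57.6 CPM in siPkm2. The groups did not overlap, and the log2 fold change was -0.34 with the block (SE 0.08, adjusted p = 0.0401, edgeR) and -0.34 without it (adjusted p = 0.263, edgeR). Ndufa8, which carries an NRF1 match near its start site, was at 50.8, 43.7 and 46.3 CPM in siNC and 59.2, 57.5 and 53.0 CPM in siPkm2. Its groups also did not overlap, but the adjusted p was 0.0708 with the block (edgeR). The arm's median log2 fold change without the block was -0.08.

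None of the 12 distal membrane arm genes passed, with or without the block. Their median log2 fold change without the block was 0.10, the highest of the 4 structural parts, and 8 of the 12 were positive, against 48.1% of all genes. Within pairs 1, 2 and 3 the median log2 ratio was -0.037, 0.18 and 0.033, with 5, 11 and 7 genes above 0. The sign of the median thus depended on the pair, and the order of the parts was not tested. Ndufb1 was at 30.03, 23.7 and 16.8 CPM in siNC and 36.9, 28.0 and 26.4 CPM in siPkm2, with an adjusted p of 0.0627 with the block (edgeR). Ndufb6 was at 32.4, 25.7 and 24.8 CPM and then 37.2, 32.2 and 31.1 CPM, with an adjusted p of 0.0720 (edgeR). Both were higher in each pair, with groups that overlapped. Ndufb4, the gene with 3 NRF1 matches, was at 11.7, 10.9 and 10.2 CPM and then 14.6, 12.3 and 11.9 CPM (adjusted p = 0.188 with the block, edgeR).

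None of the 8 Ndufaf assembly factors passed with or without the block, at log2 fold changes between -0.43 and 0.29 and a median of -0.12 without it. Their sum was 87.7 ± 10.3 CPM in siNC and 84.3 ± 9.06 CPM in siPkm2 (SD, n = 3). Of 14 assembly factors with other names, 13 were in the table and 2 rose with the block, where 12.3% of all genes passed as higher. Ecsit, an assembly factor also known from innate immune signalling, rose from 10.7 ± 1.72 to 17.4 ± 2.27 CPM (log2 fold change 0.71, adjusted p = 0.0167 with the block and 0.166 without it, edgeR). Tmem126a rose from 24.8 ± 8.52 to 33.4 ± 11.5 CPM, with overlapping groups (log2 fold change 0.43, adjusted p = 0.0260 with the block and 0.560 without it, edgeR). None of the 13 passed as lower, with Dmac1 the lowest at 22.01 ± 2.97 CPM in siNC and 17.2 ± 3.15 CPM in siPkm2 (SD, n = 3, adjusted p = 0.0702 with the block, edgeR). A positive log2 fold change was seen in 11 of the 13, against 48.1% of all genes. Some of these lay close to 0, such as Acad9 at 0.03 (SE 0.12), and 7 of the 13 were higher in all pairs, against 30.5% of all genes. The list as a whole was not tested. Of the 7 subunits encoded in the mitochondrial genome, mt-Nd1 rose with the block, though its groups overlapped (log2 fold change 0.39, adjusted p = 0.0439 with the block and 0.634 without it, edgeR). The other 6 did not pass. Among them mt-Nd3 was at -0.88 (adjusted p = 0.146) and mt-Nd4l at -0.71 (adjusted p = 0.130) with the block by edgeR. Without the block, 4 of the 7 had a positive log2 fold change. The summed level of the 7 was 4866, 2666 and 4450 CPM in siNC and 5771, 2885 and 5177 CPM in siPkm2, low in replicate 2 in both groups.

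Ndufa4 and Ndufa4l2 moved differently from each other. Ndufa4, first described with complex I and now placed with cytochrome c oxidase, was at 99.9, 72.7 and 81.9 CPM in siNC and 130, 94.4 and 113 CPM in siPkm2. It was higher in each pair, by a log2 ratio of 0.38, 0.37 and 0.46, although the groups overlapped. The log2 fold change was 0.41 with the block (SE 0.08, adjusted p = 0.0227, edgeR) and 0.41 without it (SE 0.18, adjusted p = 0.317, edgeR).

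Ndufa4l2, a related gene known as a target of hypoxia-inducible factor 1 that lowers complex I activity, was at 139, 186 and 143 CPM in siNC and 58.5, 242 and 76.5 CPM in siPkm2. The log2 ratio was -1.24 in pair 1, 0.38 in pair 2 and -0.90 in pair 3. Replicate 2, where chondrocyte markers were low and interferon-stimulated genes high, was thus the highest library in both groups and the only pair with a higher siPkm2 value. Over all 6 libraries the log2 fold change was -0.31 (SE 0.53, adjusted p = 0.817, edgeR), and -0.59 (SE 0.32, adjusted p = 0.218, edgeR) with the block. Without replicate 2 it was -1.07 (adjusted p = 0.0383, edgeR, which 4.6% of all genes passed at any fold), and -1.08 (SE 0.11, adjusted p = 0.000703, edgeR) with the block over pairs 1 and 3. Ndufa4l2 was the only complex I gene called at a fold over 2 without replicate 2, where 3.34% of all genes were called without the block and 10.8% with it, and without siPkm2 replicate 1 its log2 fold change was 0.029. Its exons (chr10:127514967-127517154, GRCm38) overlap those of Shmt2 on the other strand by 32 bases, and Shmt2 was at 159 ± 71.1 and 187 ± 60.8 CPM (SD, n = 3). Such overlaps were not particular to Ndufa4l2. Ndufb1 shares 147 bases with Cpsf2 (mean 47.3 CPM) and Ndufb6 shares 257 with Smim27 (mean 1.73 CPM), both on the other strand. The part of overlaps in the counts was not tested.

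**Figure D4:**
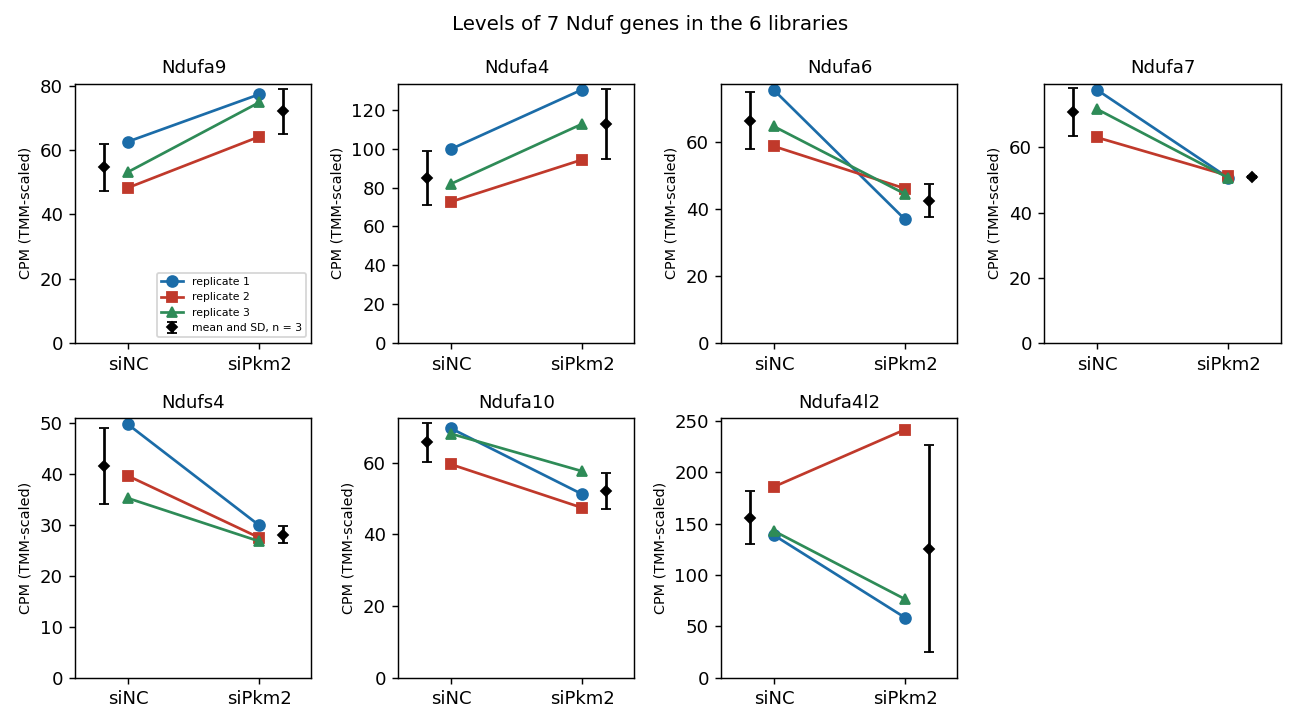
CPM of 6 complex I genes that passed with the replicate block and of Ndufa4l2 in siNC and siPkm2, with lines joining libraries of the same replicate number and diamonds for the mean and SD of 3 libraries. In Ndufa9 and Ndufa4 all 3 lines rise, in Ndufa6, Ndufa7, Ndufs4 and Ndufa10 all 3 fall, and in Ndufa4l2 replicate 2 rises while replicates 1 and 3 fall.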

How the data were processed

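RNA-seq of 3 siNC and 3 siPkm2 chondrocyte cultures was taken from the deposited table of 55416 genes. The authors deposited estimated counts, not normalized and partly fractional, and TPM values scaled within each library. The authors also deposited a fold ratio, its log2 value and a p-value with its adjusted p-value, which were not used. Per the labels, the submitters' processing notes name mm9 and edgeR without a role, and the aligner and counter are not given in the sources used here. GENCODE M21 (GRCm38) holds 93.99% of the gene identifiers, including all 51 complex I genes.

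The counts were rounded to integers and compared in R 4.3.3 with edgeR 4.0.16 (filterByExpr on the group, TMM factors, quasi-likelihood test, Benjamini-Hochberg adjustment over 15269 genes). The study's methods name no block, so the test without it was the main one. Alternatives were the replicate block, other scaling factors and filters, a test against a fold of 1.2, DESeq2 1.42.0, limma 3.58.1 on log2(TPM + 1), and each library left out. The pairs left out in turn and DESeq2 with the block were added after seeing the data. Libraries with the same number deviated together from their group means (correlations across genes of 0.66, 0.76 and 0.65), while different numbers gave 0.16 or less. No 2 libraries of a group were duplicates, since at least 52.6% of genes differed beyond sampling noise. The edgeR fits were tested on simulated counts, with the same spread set for every gene and no difference between replicates. These libraries differ from that setting, so the simulation does not show how the fits perform on them. The complex I genes and all lists were chosen with earlier results of these data known. Named with values were the 10 genes with the lowest p with and without the block, the catalytic subunits, the highest and lowest in TPM, Ndufa4 and Ndufa4l2. Ndufb4 was added for its motif matches. An item is not reported here, though counts and sums include every gene. Promoter sequences and start sites are from RefSeq (GRCm38.p6). Promoters on chromosome 18, which holds Ndufa2, were left out, for the complex I genes and for all others. Of the 48 complex I genes tested, 41 had an entry.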

Additional observations from a re-analysis of the deposited data

How the results depend on the processing

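Without the block, no complex I gene had an adjusted p under 0.05 by edgeR under RLE or upper-quartile factors, without a filter, with at least 10 counts in every library or with any single library left out, nor by DESeq2 or limma. The count was 7 with the replicate block, 7 by DESeq2 with the replicate block, 10 with the block over replicates 1 and 3, and 1 without replicate 2, and the count at a fold over 2 was 1 in the last 2 settings (Ndufa4l2 in each) and 0 in all others run. The group's median log2 fold change ranged from -0.117 to 0.146, and the number of positive genes from 17 to 36, with single libraries left out, and upper-quartile factors gave -0.0738 and 18. The log2 fold change of Pkm ranged from -2.80 to -2.34 with single libraries left out. It passed an adjusted p of 0.05 without siNC replicate 2, with the block (-2.53), without replicate 2 (-2.65), with the block over replicates 1 and 3 (-2.63), by DESeq2 (-2.50) and by DESeq2 with the block (-2.52). Near 0, some named genes changed sign. With single libraries left out, Ndufa4l2 ranged from -1.20 to 0.0285, Ndufs1 from -0.0497 to 0.190, Ndufs3 from -0.114 to 0.144, Ndufs8 from -0.306 to 0.212 and Ndufv1 from -0.183 to 0.0561. Ndufs1 was at -0.00199 with upper-quartile factors. Ndufs3 was at 0.00224 with RLE factors, 0.00033 without a filter, 0.00952 with the replicate block, 0.0562 with the block over replicates 2 and 3, 0.0449 over replicates 1 and 2, 0.0102 by DESeq2 and 0.0196 by DESeq2 with the block. Ndufs8 was at 0.0572 with the block over replicates 2 and 3. The cause was not tested. The 7 genes that passed with the block kept their direction in every setting run. They were picked by a fit of these same libraries and had the same sign in all 3 pairs. Their steady direction was therefore nearly fixed in advance and is not separate support. Each group had 3 libraries, and how far their spread or their depth limited the precision was not tested.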
